A study of Mus musculus with 23 samples.

Results

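Expression of 10 haematopoietic cytokine receptor genes (Kit, Flt3, Csf1r, Csf2ra, Csf2rb, Csf3r, Il3ra, Il6ra, Il1r1 and Il1rl1) was followed through 4 stages of blood formation from mouse embryonic stem (ES) cells, with and without the leukaemic fusion protein RUNX1-ETO. They were chosen by symbol, through the RefSeq accession of each array probe, and are 10 of 20145 genes that the array represents by at least 1 probe. All cells came from a single ES cell line that carried an HA-tagged human RUNX1-ETO gene under a tetracycline-responsive promoter, on a background with normal Runx1, and the labels give the strain as C57BL/6. RUNX1-ETO was switched on with doxycycline (Dox) at 0.1 μg per ml, and uninduced cells received no Dox.

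Haemogenic endothelium (HE), sorted as KIT+Tie2+CD41- cells, HE2 cells in transition to blood (KIT+Tie2+CD41+) and progenitors (KIT+Tie2-CD41+) came from blast culture, with Dox from day 1 and sorting on day 2. The blast culture medium contained IL-6 and VEGF. Myeloid progenitors were grown from sorted progenitors in medium with stem cell factor, FLT3 ligand and thrombopoietin, with Dox for 12 h. HE, HE2 and myeloid progenitors gave 3 arrays without Dox and 3 with Dox at each stage, and sorted progenitors gave 2 and 2. A further array of progenitors without Dox, named here the additional array, is a technical replicate by its title and replicate 3 by its source, and was left out of the tests. No array held Dox-treated cells without the transgene, so the effects of Dox and of RUNX1-ETO cannot be told apart.

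Between 48.8 and 78.4% of spots on an array were well above background. The mouse probe for Runx1t1, the counterpart of the ETO part of the human transgene, was brighter with Dox at each stage, with no overlap of arrays: it read 10.56 to 11.14 without Dox and 11.81 to 12.44 with Dox in HE, and 7.50 to 7.92 and 11.05 to 12.30 in progenitors (log2 intensity). Of the sort markers, Itga2b (CD41) read 9.49 to 11.46 in uninduced HE, which was sorted as CD41-, and 6.92 to 8.02 in induced HE. Tek (Tie2) read 10.91 to 11.29 in induced progenitors, sorted as Tie2-, and 8.63 to 8.71 in uninduced progenitors, against 9.58 to 11.31 in uninduced HE2, sorted as Tie2+. Arrays lay on 3 slides. HE, HE2 and uninduced progenitors were on slides 1 and 2, and myeloid progenitors, induced progenitor array 2 and the additional array on slide 3. In HE and in HE2, slide 1 held 2 uninduced arrays and 1 induced array, and slide 2 held 1 uninduced and 2 induced.

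Cytokine receptors carry the signals that keep blood progenitors alive and set how fast they divide and which lineage they enter. KIT, FLT3 and CSF1R are receptor tyrosine kinases. The receptors for IL-3, GM-CSF, G-CSF and IL-6 have no kinase of their own and signal through JAK kinases and STAT factors, whereas the IL-1 receptor family signals through the adaptor MYD88 and IRAK kinases. Some of these chains work with a partner: the alpha chains for GM-CSF and IL-3 (Csf2ra and Il3ra) share the beta chain made by Csf2rb, and the IL-6 receptor joins with gp130 (Il6st).

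Induction of RUNX1-ETO was accompanied by higher expression of Il1rl1, the receptor for IL-33, at all 4 stages, by 3.55-fold in HE, where 1 of 3 uninduced arrays was well above background, and by 6.15-fold in HE2, then by 14.1-fold in sorted progenitors and 9.69-fold in myeloid progenitors. Il6ra rose with Dox in HE and fell in myeloid progenitors. Il1r1, the signalling receptor for IL-1, rose in HE and in myeloid progenitors, and Csf1r fell in HE2. No change in Csf2ra, Csf2rb, Csf3r or Il3ra with Dox passed the test, which required an unadjusted P of at most 0.001 from limma and a change of at least 2-fold. A gene that met both is said to have passed or to be called. For Il1rl1 the brightest of 3 probes was used, and neither of the others passed in HE or HE2. Kit was not tested because the cells were sorted on it, and Flt3 stayed below the log2 intensity of 6.5 that at least 1 array had to reach, so that 8 of 9 receptors other than Kit were tested.

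With Dox in HE, 3 of the 8 receptors rose and 0 fell (6 and 1 at an unadjusted P under 0.05 in limma), where 7.09% of the 15202 genes tested passed and 4.7% did so upwards. In HE2, 1 rose and 1 fell, against 7.22% of all genes. Il1rl1 was the 1 receptor that rose in progenitors, where 3.73% of all genes passed and 3.03% did so upwards, and in myeloid progenitors 2 rose and 1 fell, against 6.31%. The median log2 change of the 8 receptors was 0.95 in HE and 0.52 in HE2, compared with 0.05 in sorted and 0.00 in myeloid progenitors, where the median over all genes lay between -0.04 and -0.01. Induced HE arrays all lay above the uninduced ones for 6 of the 8, compared with 14.1% of all genes. By the same measure, 4 receptors lay above and 1 below in HE2. In sorted progenitors 2 lay above and 3 below, and in myeloid progenitors 3 above and 1 below. The shares of all genes at these stages are not given.

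**Figure D1:**
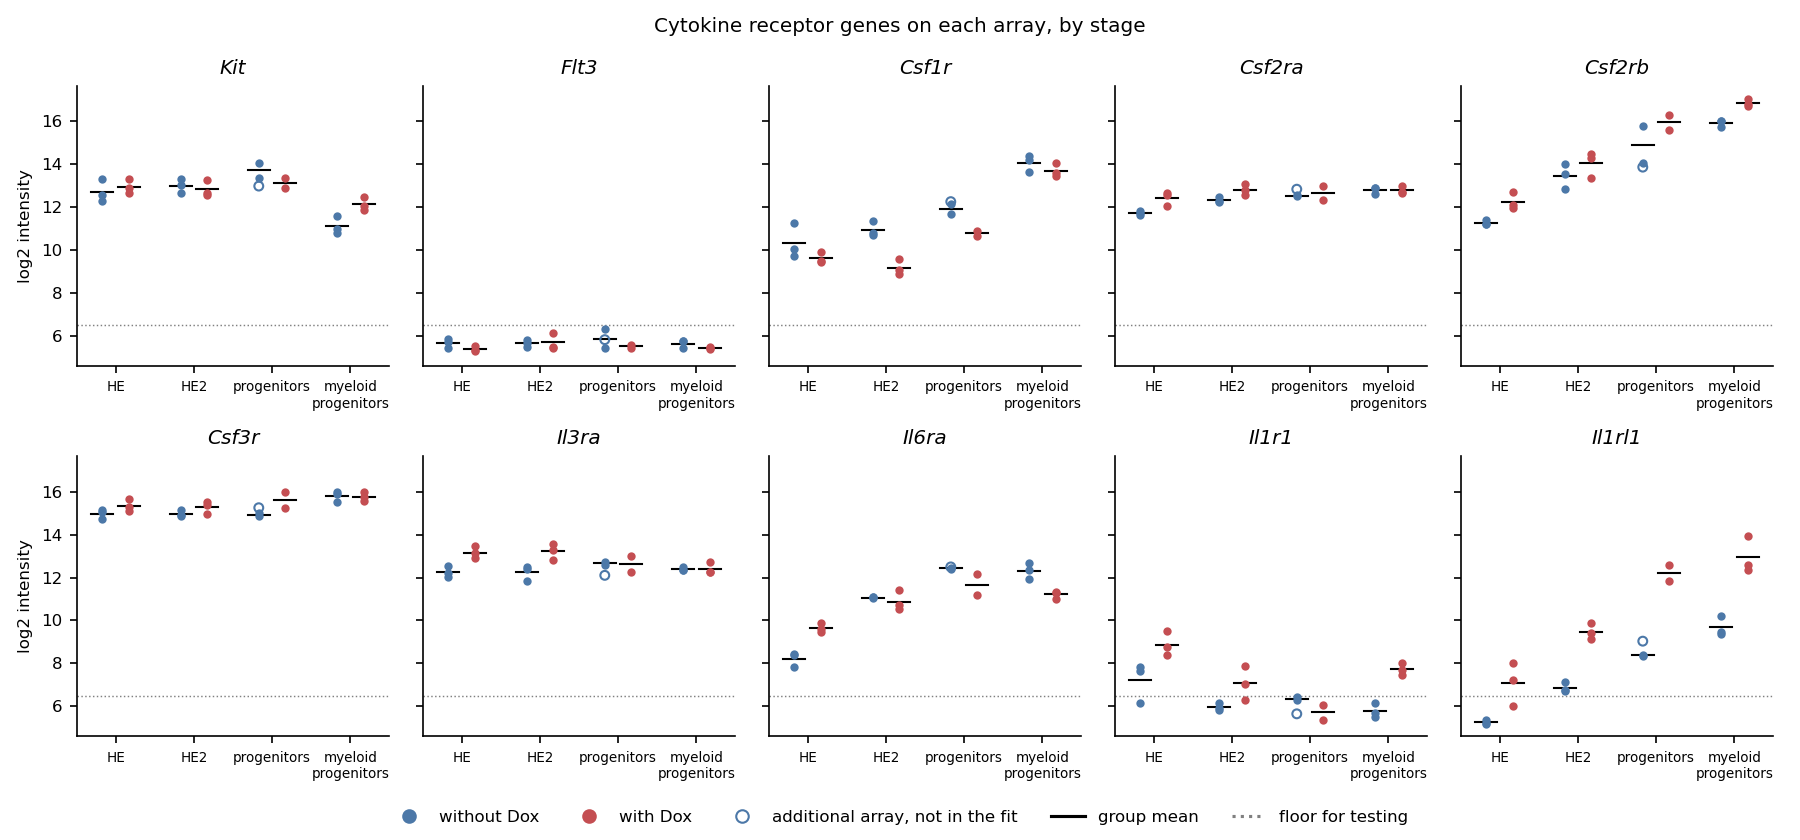
Log2 intensity of each receptor gene on each array (points), by stage, without Dox (blue) and with Dox (red); black lines are group means, open circles the additional uninduced progenitor array, and the dotted line the floor of 6.5 for testing. Il1rl1 was higher on every induced array than on any uninduced array of the same stage, Il6ra crossed from higher with Dox in HE to lower in myeloid progenitors, and Flt3 lay below the floor on every array.

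Kit, the receptor for stem cell factor, is given as a description only. Its log2 intensity was 12.29, 12.54 and 13.29 in uninduced HE, 12.65, 13.03 and 13.32 in uninduced HE2, and 13.37 and 14.06 in uninduced progenitors. HE and HE2 overlapped, and both progenitor arrays lay above them. The arrays of uninduced myeloid progenitors read 11.56, 10.96 and 10.79, a mean 2.61 below that of uninduced progenitors, with no overlap. Induced myeloid progenitors read 12.46, 11.85 and 12.04, all above the uninduced ones, with a difference in means of 1.02. The additional progenitor array, on the same slide as the myeloid progenitors, read 12.98. In RNA of whole populations, here and for every receptor below, fewer cells that express a gene and less RNA per cell cannot be told apart.

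Flt3, the receptor for FLT3 ligand and a marker of early lymphoid-myeloid progenitors, had group means of 5.39 to 5.87 on the brighter of its 2 probes. That probe was well above background on 12 of 22 arrays and the other on 5. No difference between groups was tested. Its ligand gene Flt3l, which was measured well above background on all 22 arrays, fell with Dox by 2.35 in HE and by 1.74 in HE2 on the log2 scale (adjusted P = 3.33e-05 and 0.000638).

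Csf1r encodes the receptor for M-CSF and IL-34, on which monocytes and macrophages depend. In HE2 it read 11.34, 10.70 and 10.78 without Dox and 9.05, 9.57 and 8.90 with Dox. All 3 induced arrays lay below all uninduced ones, and the fall was 3.40-fold (log2 change -1.77 ± 0.33 SE, adjusted P = 0.000981). In progenitors the uninduced arrays read 11.67 and 12.13 and the induced ones 10.65 and 10.91, again without overlap, but the log2 change of -1.12 ± 0.40 missed the threshold (adjusted P = 0.118). HE and myeloid progenitor arrays overlapped with and without Dox, with log2 changes of -0.73 ± 0.33 and -0.38 ± 0.33. The difference between the changes in HE2 and HE, -1.03 ± 0.46, did not pass either (adjusted P = 0.512).

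Without Dox, Csf1r was 4.49-fold higher in myeloid progenitors than in progenitors: the arrays read 14.17, 14.39 and 13.65 (log2 change 2.17 ± 0.37, adjusted P = 0.000228), where 13.9% of all genes passed and 7% did so upwards. These were 1064 genes up and 1054 down, and 801 and 1366 with arrays scaled to their 75th percentile. Csf1r was the 1 receptor of 8 called there. Stage and slide coincide here. With slide as a block the log2 change was 1.87 and no longer passed, and within slide 3, against the additional array alone, it was 1.82. Of the 8 macrophage markers tested, 5 rose over the same step, and the mean log2 intensity of the 8 was 7.90 to 8.29 on uninduced progenitor arrays and 9.43 to 10.45 on uninduced myeloid progenitor arrays, while C1qa lay below the floor and Cd68 was not matched. Over this step 6 of 6 erythroid and 4 of 4 megakaryocyte markers also rose, with median log2 changes of 4.87 and 3.46, and 3 of 5 markers of granulocyte-monocyte progenitors fell. In HE2 the mean over the macrophage markers was 7.24 to 7.55 without Dox and 7.03 to 7.17 with Dox. With Dox there, 1 of the 8 rose and 1 fell, against 7.22% of all genes. The part of macrophage markers in either difference was not tested.

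The 3 probes for Csf1r, all designed to the same transcript accession, did not give the same picture. For Dox in HE2 the other 2 read log2 changes of -0.08 and -0.74, and neither passed in a fit of all probes. From progenitors to myeloid progenitors they read 1.05 and 2.35, and the second passed. With the mean of the probes in place of the brightest, the fall in HE2 was -0.86 and was not called. Among induced cells, Csf1r rose 3.04-fold from HE2 to progenitors (log2 change 1.60 ± 0.37, adjusted P = 0.00542), where 3 of the 8 receptors rose, against 7.36% of all genes in either direction and 2.02% upwards. That rise lost its call with slide as a block (1.42), with the mean of the probes (0.89), and without induced HE2 array 1 or 3 or either induced progenitor array (1.47 to 1.73).

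Neither of the alpha chains was called in any of the 13 comparisons. Il3ra, which binds IL-3, read 12.52, 12.04 and 12.21 in uninduced HE and 13.12, 12.89 and 13.46 in induced HE. In HE2 the arrays read 12.47, 11.86 and 12.42 without Dox and 13.27, 12.81 and 13.57 with Dox. Induced arrays lay above uninduced ones at both stages, and the log2 changes of 0.90 ± 0.24 and 0.97 ± 0.24 (adjusted P = 0.0152 and 0.00931) fell just short of 2-fold. In HE the unadjusted P of 0.0016 in limma missed its threshold too. Without induced HE2 array 2 the change in HE2 was 1.17 and passed. In progenitors and myeloid progenitors the changes were -0.03 (95% confidence interval -0.66 to 0.59) and 0.01 (-0.50 to 0.52), and the arrays overlapped. Csf2ra, which binds GM-CSF, had log2 changes of 0.71 ± 0.20 in HE (adjusted P = 0.0186) and 0.48 ± 0.20 in HE2, both under 2-fold, and of -0.01 (-0.42 to 0.41) in myeloid progenitors. Its changes in HE and HE2 missed the P threshold too (unadjusted P = 0.0021 and 0.0257 in limma).

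Csf2rb, their shared beta chain, rose from HE to HE2 without Dox. Uninduced HE arrays read 11.19, 11.22 and 11.39 and uninduced HE2 arrays 14.02, 13.53 and 12.86, a 4.60-fold rise (log2 change 2.20 ± 0.38, adjusted P = 0.001), with 2 of 8 receptors called, both upwards, against 5.07% of all genes and 2.39% upwards. All genes that passed numbered 770, and 498 without uninduced HE2 array 3. Uninduced progenitors read 15.77 and 14.03 and myeloid progenitors 16.01, 16.02 and 15.73. The step from HE2 to progenitors, 1.43 ± 0.43 (adjusted P = 0.0443), and that to myeloid progenitors, 1.02 ± 0.43 (adjusted P = 0.0756), missed the threshold. The uninduced progenitor arrays lay further apart than those of any other group. Without array 2 the first step was 2.30 and passed and the second was 0.15, and without array 1 the first was 0.56 and the second 1.89, which passed. The additional array, at 13.86, lay with array 2.

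Among induced cells, Csf2rb rose 3.42-fold from HE to HE2 (log2 change 1.77 ± 0.38, adjusted P = 0.0086) and 3.80-fold from HE2 to progenitors (1.93 ± 0.43, adjusted P = 0.00445). From HE to HE2 with Dox, 3 receptors rose and 1 fell, against 3.1% of all genes. The Csf2rb step from HE to HE2 lost its call without induced HE array 1 or 3 or induced HE2 array 1 or 2 (1.56 to 1.70), and that to progenitors without induced HE2 array 3 (1.60) or induced progenitor array 1 (1.58). Its changes with Dox within a stage were 0.99 ± 0.38 in HE and 0.56 ± 0.38 in HE2, and 1.05 ± 0.47 in sorted and 0.92 ± 0.38 in myeloid progenitors, all upwards and none called. Without uninduced progenitor array 1 the change in progenitors was 1.92 and passed, and without array 2 it was 0.18. A second Csf2rb probe read smaller changes with Dox, between -0.18 and 0.55, and a rise from HE to HE2 that did not pass. Csf2rb2, the mouse gene for a second beta chain, is nearly identical in sequence, and cross-hybridisation between them was not tested. It rose with Dox in HE and HE2, by 1.57 and 1.77 (adjusted P = 0.00983 and 0.00423), while its second probe read 0.46 and 0.59 and did not pass.

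Csf3r, the G-CSF receptor, read 14.73 to 15.13 in uninduced HE and 15.51 to 15.98 in uninduced myeloid progenitors. With Dox it changed by 0.38 in HE (95% confidence interval -0.08 to 0.84), 0.31 in HE2 (-0.15 to 0.78), 0.68 in progenitors (0.12 to 1.25) and -0.04 in myeloid progenitors (-0.50 to 0.42), and none passed. From progenitors to myeloid progenitors without Dox it was 1.82-fold higher (log2 change 0.87 ± 0.25, adjusted P = 0.0113), under 2-fold and above the P threshold (unadjusted P = 0.00238 in limma). It was 0.43 to 1.63 over the alternatives and passed in 1 of them, with the scan day as a block (1.63), while within slide 3, against the additional array, it was 0.54.

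Il6ra encodes the ligand-binding chain of the IL-6 receptor, and the IL-6 it binds was a component of the blast culture medium. Uninduced HE arrays read 8.46, 8.40 and 7.81, uninduced HE2 arrays 11.08, 11.07 and 11.04, and uninduced progenitors 12.41 and 12.43. The rise was 7.17-fold from HE to HE2 (log2 change 2.84 ± 0.27, adjusted P = 2.05e-06) and 2.56-fold from HE2 to progenitors (1.36 ± 0.30, adjusted P = 0.00639), where it was the only receptor of 8 that passed, against 5.39% of all genes and 1.78% upwards (820 genes in all, and 517 without uninduced progenitor array 2). Uninduced myeloid progenitors read 12.69, 12.35 and 11.92, a log2 change of -0.10 (95% confidence interval -0.74 to 0.53) from progenitors. The step from HE2 to progenitors lost its call when either uninduced progenitor array was left out (1.37 and 1.35), or uninduced HE2 array 3 (1.35), at nearly the same size.

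With Dox the group means of Il6ra spanned 9.65 to 11.67, compared with 8.22 to 12.42 without Dox. Induced HE arrays read 9.46, 9.59 and 9.89, all above the uninduced ones, a 2.69-fold rise (log2 change 1.43 ± 0.27, adjusted P = 0.00112). Induced HE2 arrays, at 10.70, 10.53 and 11.41, overlapped with the uninduced ones, with a log2 change of -0.19 (95% confidence interval -0.75 to 0.38). Induced progenitors read 12.17 and 11.18, below the uninduced ones (-0.75 ± 0.33, adjusted P = 0.209), and induced myeloid progenitors 11.33, 11.01 and 11.30, a 2.15-fold fall (-1.11 ± 0.27, adjusted P = 0.00881). Among induced cells the rise from HE to HE2 was 2.35-fold (1.23 ± 0.27, adjusted P = 0.00952), and was not called without induced HE array 1 or 2 or induced HE2 array 3 (0.97 to 1.20). It shares the induced HE arrays with the Dox comparison in HE.

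The change with Dox was lower in myeloid progenitors than in HE by 2.53 ± 0.38 on the log2 scale (adjusted P = 0.000425), where 4.72% of all genes passed this test of the difference. It was lower in HE2 than in HE by 1.61 ± 0.38 (adjusted P = 0.0531), where 1.34% passed. The second difference was not called with the replicate number as a block (-1.61), nor without uninduced HE array 3, induced HE array 2 or 3, any uninduced HE2 array or induced HE2 array 1 or 2, with values of -1.64 to -1.40. The fall in myeloid progenitors was lost under the block (-1.11), with early stages and myeloid progenitors normalized apart (-1.04), and without uninduced array 1 (-0.92) or 2 (-1.09) or any of the induced arrays, of which array 1 gave the value farthest from 0 (-1.17). The rise in HE was called in every alternative run, between 1.22 and 1.54. HE and myeloid progenitors differed in the time with Dox, in culture medium and in slide, so stage, time of exposure, medium and slide cannot be told apart.

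**Figure D2:**
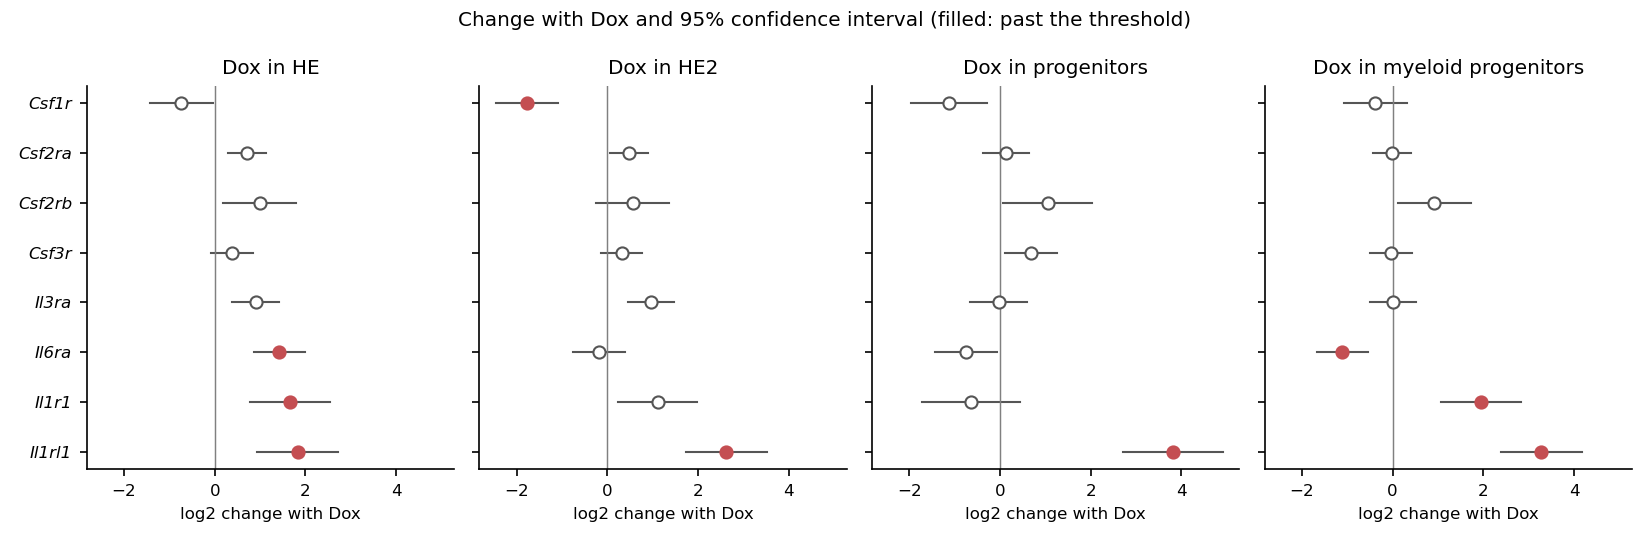
Log2 change with Dox (points) and its 95% confidence interval (lines) for the 8 receptors tested, at each stage; filled points passed the threshold. Il1rl1 lies to the right at every stage, and Il6ra moves from 1.43 in HE to -1.11 in myeloid progenitors.

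Il1r1 was dim at most stages. Uninduced HE arrays read 6.14, 7.65 and 7.85 and induced ones 8.75, 9.51 and 8.38, all higher, a 3.17-fold rise (log2 change 1.66 ± 0.42, adjusted P = 0.00975). Its unadjusted P lay close to the threshold, and 23 of 39 alternatives took the call away, with changes of 1.13 to 1.98 over all of them. Leaving out any array other than uninduced HE array 2 or 3, induced HE array 3 or induced HE2 array 1 or 2 did so. Without uninduced HE array 1, the lowest of its group, the change was 1.13. In HE2 the arrays read 5.91, 6.15 and 5.82 without Dox and 6.31, 7.87 and 7.02 with Dox, without overlap, and the change of 1.11 ± 0.42 did not pass (adjusted P = 0.0787).

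In progenitors Il1r1 read 6.27 and 6.43 without Dox and 6.08 and 5.35 with Dox, a log2 change of -0.64 (95% confidence interval -1.71 to 0.44). The induced array at 5.35 was not well above background. In myeloid progenitors it read 5.48, 6.15 and 5.70 without Dox, of which 1 array was well above background, and 8.03, 7.47 and 7.68 with Dox, a 3.87-fold rise (1.95 ± 0.42, adjusted P = 0.00345). The rise was not called without uninduced array 1 or induced array 1 (1.80 in both cases). The changes in myeloid progenitors and progenitors differed by 2.59 ± 0.66, just short of the threshold (adjusted P = 0.0662), and 1.5% of all genes passed that test. This difference draws on arrays not well above background at both stages. It passed in 12 of 38 alternatives, 6 of them arrays left out, at 2.49 to 2.78. Among induced cells Il1r1 fell 3.51-fold from HE to HE2 (-1.81 ± 0.42, adjusted P = 0.0137). Over the same step without Dox the log2 change was -1.25 ± 0.42 (adjusted P = 0.064), which did not pass, and -1.79 without uninduced HE array 1, which did. The fall among induced cells was not called without induced HE array 1 (-1.88) or 2 (-1.50), or without induced HE2 array 1 (-1.43) or 3 (-1.79).

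Il1rl1 encodes ST2, the receptor through which mast cells, eosinophils and some lymphoid cells respond to the alarmin IL-33. Uninduced HE arrays read 5.35, 5.19 and 5.23, with 1 of the 3 well above background, and induced HE arrays read 7.22, 8.01 and 6.03. HE2 arrays read 6.69, 6.75 and 7.13 without Dox and 9.39, 9.89 and 9.15 with Dox. Uninduced and induced arrays did not overlap at either stage, and the rises were 3.55-fold (log2 change 1.83 ± 0.43, adjusted P = 0.00579) and 6.15-fold (2.62 ± 0.43, adjusted P = 0.000316).

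In progenitors Il1rl1 read 8.37 and 8.41 without Dox and 11.83 and 12.57 with Dox. In myeloid progenitors it read 10.21, 9.39 and 9.44 without Dox and 13.92, 12.35 and 12.60 with Dox. The rises were 14.1-fold (3.81 ± 0.52, adjusted P = 0.000178) and 9.69-fold (3.28 ± 0.43, adjusted P = 3.09e-05). Within slides, the difference was 1.95 and 1.79 in HE, 2.67 and 2.39 in HE2, and 3.47 in progenitors on slide 1, with 3.54 on slide 3 against the additional array. The changes in HE2, progenitors and myeloid progenitors were called in every alternative run. The change in HE lost its call in 10 of 39, among them each of the 3 uninduced arrays left out (1.79 to 1.87), induced array 1 (1.76) and induced array 2 (1.37). It was 0.92 with the mean of the probes, 1.27 with a normexp offset of 50 and 1.31 in the deposited log2 values, and was called in none of these. None of the 4 differences between stages in the Dox response of Il1rl1 passed. For progenitors against HE2, 0 of the 8 receptors passed (limma; 2 at an unadjusted P under 0.05), against 0.645% of all genes. They were 0.80 ± 0.60 for HE2 against HE, 1.19 ± 0.67 for progenitors against HE2, 1.45 ± 0.60 for myeloid progenitors against HE and -0.54 ± 0.67 for myeloid progenitors against progenitors.

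Without Dox, Il1rl1 was also higher at each later stage, by 1.60 ± 0.43 from HE to HE2 (adjusted P = 0.0202), 1.53 ± 0.48 from HE2 to progenitors (adjusted P = 0.0565) and 1.29 ± 0.48 from progenitors to myeloid progenitors (adjusted P = 0.0449). None of these steps passed as tested. In the last of them stage and slide coincide, and within slide 3, against the additional array, the difference was 0.64. Uninduced HE and HE2 arrays of the same replicate number deviated together from their group means, and with that number as a block the first step passed at the same size (1.60), as it did without induced HE array 2 or 3 or induced myeloid progenitor array 1. With the mean of the probes it was 0.70, and the other probes read -0.07 and 0.58 for this step and 0.27 and -0.24 from progenitors to myeloid progenitors. Among induced cells the steps from HE to HE2 and from HE2 to progenitors were 5.26-fold (2.39 ± 0.43, adjusted P = 0.00188) and 6.60-fold (2.72 ± 0.48, adjusted P = 0.000679), and both passed. The second lost its call without induced progenitor array 2 (2.35) and with slide as a block (2.40).

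Il1rl1 had 3 probes, 2 of them designed to one transcript accession and the third to another. All 3 rose in progenitors (3.81, 2.46 and 2.18) and in myeloid progenitors (3.28, 2.42 and 2.51). In HE and HE2 the 2 dimmer probes changed by 0.39 to 1.27, and neither passed. These were well above background on 10 of 22 arrays each, compared with 20 for the probe used. Il18r1, another receptor of the IL-1 family whose gene lies 134 bases from Il1rl1, stayed below the floor.

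**Figure D3:**
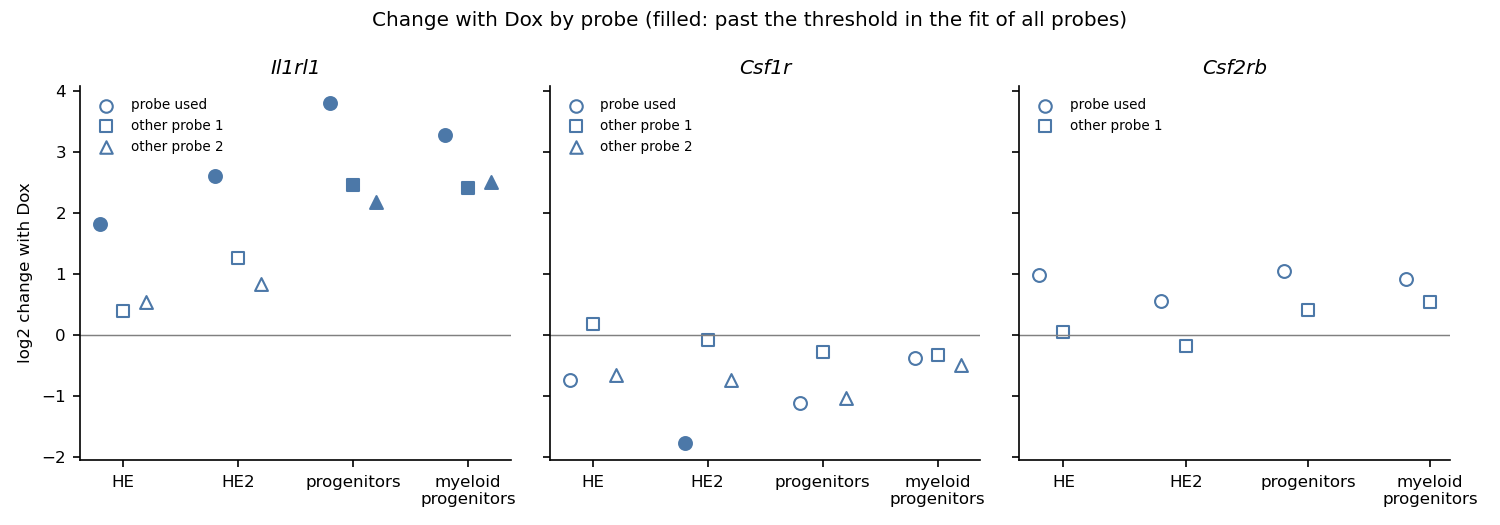
Log2 change with Dox at each stage for each probe of Il1rl1, Csf1r and Csf2rb; circles are the probe used, squares and triangles the others, and filled symbols passed the threshold in a fit of all probes. All 3 Il1rl1 probes rose in progenitors and myeloid progenitors, whereas the fall of Csf1r in HE2 passed with 1 of 3 probes.

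Hdc, the enzyme that makes histamine, and Cpa3, a mast cell protease, were the mast cell markers that rose with Dox. Of 7 such markers, 4 were tested, of which 2 rose in HE and 1 in HE2, and 2 each in sorted and in myeloid progenitors. Over all genes 7.09, 7.22, 3.73 and 6.31% passed at these stages. Hdc rose at each stage, by 4.25 to 5.47 on the log2 scale. Cpa3 rose by 1.32 in HE, 2.28 in progenitors and 3.27 in myeloid progenitors, and its change of 1.09 in HE2 did not pass. Tpsb2 and Cma1 did not pass at any stage, and the defining genes of the high-affinity IgE receptor, Fcer1a and Ms4a2, and the basophil protease Mcpt8 lay below the floor. The mean log2 intensity of the 4, of which Hdc had the largest change at each stage, was 6.90 to 7.22 on uninduced and 8.80 to 8.82 on induced HE arrays, 7.01 to 7.28 and 8.87 to 9.02 in HE2, 7.34 to 7.86 and 9.24 to 9.35 in progenitors, and 7.19 to 7.67 and 9.43 to 10.63 in myeloid progenitors.

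Markers of other cell types moved with Dox at the same stages. Of 6 erythroid markers, 3 rose in HE, 3 in HE2 and 4 in progenitors, with median log2 changes of 1.38, 1.09 and 1.67, and the median was -0.29 in myeloid progenitors. Of 8 endothelial markers, 1 rose in HE, 3 in HE2 and 3 in progenitors. In myeloid progenitors 7 of the 8 rose, and their mean log2 intensity went from 9.31 to 10.11 without Dox to 11.89 to 12.20 with Dox. Of 5 mesenchymal and smooth muscle markers, 1 rose and 2 fell in HE and 3 fell in HE2. Of 4 megakaryocyte markers, 1 fell in HE2 and 4 in myeloid progenitors. Of 5 markers of granulocyte-monocyte progenitors, 1 fell in HE2 and 1 in progenitors. Of 6 early haematopoietic markers, 1 rose in myeloid progenitors and 1 fell in HE. The one that fell was Itga2b, on which the cells were sorted. Tek, counted among the endothelial markers, was a sort marker too. Of 8 macrophage markers, 1 rose at each stage and 1 fell at each stage but HE. Over all genes 7.09, 7.22, 3.73 and 6.31% passed at the 4 stages. The part of any of these cell types in the changes of Il1rl1, Il6ra, Il1r1 or Csf1r was not tested.

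The genes whose log2 intensity followed each receptor most closely over the 22 arrays are given as a description, since arrays of a stage share most of their pattern. For Il1rl1 they were Cpa3, Acod1 and Colec11 (Pearson r of 0.944, 0.943 and 0.942), and for Il6ra Hcls1, Wdfy4 and Sema4d (0.965, 0.954 and 0.936). Csf2rb was closest to Csf2rb2 (0.961), followed by Plscr1 and Myd88. Irf5, Fcgr4 and Afp were closest to Csf1r (0.958 to 0.952), and Nuak2, Hr and Phox2a to Il1r1 (0.919 to 0.872). Between receptors, r was highest for Csf2rb with Il1rl1 (0.89) and with Il6ra (0.80).

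Promoter sequences are shown for Il1rl1, which rose at every stage on the probe used, and for Il6ra, whose change turned with stage. RefSeq (GRCm38.p6) gave 11 promoters for 8 of the 10 receptors, each with 250 bases before and 50 after an annotated start, and none was given for Csf1r or Csf2rb. Capitals mark 3 motifs searched on both strands: TGTGGT, the core bound by RUNX factors, GAGGAA, a core of PU.1 sites, and AGATAA, bound by GATA factors, or their reverse complements.
Il1rl1, upstream start, chr1:40429320-40429619, plus strand: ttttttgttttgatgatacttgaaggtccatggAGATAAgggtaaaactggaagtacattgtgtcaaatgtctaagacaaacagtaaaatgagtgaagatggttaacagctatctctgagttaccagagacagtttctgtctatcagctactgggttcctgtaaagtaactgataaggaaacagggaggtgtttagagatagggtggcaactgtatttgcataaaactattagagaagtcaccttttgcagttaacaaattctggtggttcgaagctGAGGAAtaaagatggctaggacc
Il1rl1, downstream start, chr1:40439379-40439678, plus strand: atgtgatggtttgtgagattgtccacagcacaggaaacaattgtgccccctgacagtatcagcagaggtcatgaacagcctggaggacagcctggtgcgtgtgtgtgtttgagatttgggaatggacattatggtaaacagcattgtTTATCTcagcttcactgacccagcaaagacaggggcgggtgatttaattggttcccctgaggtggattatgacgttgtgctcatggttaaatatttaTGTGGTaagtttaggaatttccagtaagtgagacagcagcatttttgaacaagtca
Il6ra, chr3:89913147-89913446, minus strand: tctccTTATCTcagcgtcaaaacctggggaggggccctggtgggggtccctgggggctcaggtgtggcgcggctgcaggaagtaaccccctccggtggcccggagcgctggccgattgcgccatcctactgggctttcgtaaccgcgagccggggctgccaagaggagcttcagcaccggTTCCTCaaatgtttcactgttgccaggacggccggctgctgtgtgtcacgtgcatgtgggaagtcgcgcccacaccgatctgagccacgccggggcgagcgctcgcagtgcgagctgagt

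With the annotated start at 0, the downstream Il1rl1 promoter held the RUNX core at -6 and a GATA motif at -103, and the upstream one a GATA motif at -217 and the PU.1 core at 27. The Il6ra promoter held the PU.1 core at -70 and a GATA motif at -245, and both promoters of Il1r1 held none of the 3. No match overlapped another within a promoter. Over 32851 promoters of 300 bases, 16.8% held the RUNX core, 28.3% the PU.1 core and 11.2% the GATA motif. Of the 11 receptor promoters, 1 held the RUNX core, 6 the PU.1 core and 3 the GATA motif. The 2 promoters of Kit overlap, and their PU.1 match is the same one counted in both. A match of 6 bases is a description and not a site of binding.

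Of 22 other chains of cytokine receptors that were tested, 3 rose and 1 fell with Dox in HE, 7 rose and 0 fell in HE2, 1 rose in progenitors, and 2 rose and 1 fell in myeloid progenitors, with a median log2 change between -0.02 and 0.30. Over all genes 7.09, 7.22, 3.73 and 6.31% passed at these stages. Il1r2, the decoy receptor that takes up IL-1 without signalling, rose by 3.32 in HE, 2.77 in HE2 and 2.26 in myeloid progenitors (adjusted P = 5.79e-07, 5.63e-06 and 3.28e-05). Lifr, the receptor for LIF, rose by 1.15 in HE2, by 2.28 in sorted progenitors and by 1.65 in myeloid ones. Il10ra rose by 1.97 in HE and 1.89 in HE2. Il2rg, the common gamma chain, fell by 2.37 in HE.

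Of 24 kinases, adaptors and STATs, 2 rose and 2 fell in HE, 1 rose and 3 fell in HE2, and 0 passed in progenitors or myeloid progenitors (limma; 4 and 9 at an unadjusted P under 0.05), where 3.73 and 6.31% of all genes passed. The PI3-kinase subunit Pik3cd rose by 2.20 in HE. Vav1, an exchange factor used by many of these receptors, fell by 1.34 in HE and 1.28 in HE2. Of 14 inhibitors, 3 rose and 1 fell in HE, 1 rose and 3 fell in HE2, 1 rose and 1 fell in progenitors, and 2 rose in myeloid progenitors, beside 7.09, 7.22, 3.73 and 6.31% of all genes.

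Cish, a feedback inhibitor that STAT5 switches on, was the inhibitor that rose at all 4 stages, by 1.28 in HE and 1.58 in HE2, and by 2.27 in sorted and 1.27 in myeloid progenitors (adjusted P = 0.00723, 0.00139, 0.000991 and 0.00851). Dok2, an adaptor that dampens tyrosine kinase signals, fell by 1.72 in HE and 2.08 in HE2. Of 8 target genes tested, 1 passed at any stage, Cebpb, which fell by 1.88 in HE2. Of 7 ligands tested, Flt3l and Csf1 fell in HE, Csf1 by 1.79 on the log2 scale, and Flt3l fell in HE2 as well. Over all genes 7.09% passed in HE and 7.22% in HE2.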

How the data were processed

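The authors deposited, for each array, the intensity of every spot on Agilent mouse arrays in 1 colour as Feature Extraction read it (version 10.7.1.1 per the submitters' processing notes, 10.7.3.1 per the file headers), with local background and flags, not normalized between arrays. They also deposited log2 values, background-corrected and quantile normalized with limma, used here as an alternative. From the median intensities of 23 arrays, background was corrected with normexp (offset 16), 3671 control spots and spots marked as outliers were left out, arrays were quantile normalized, and spots of a probe were averaged. Of 55681 probes, 26582 matched a symbol by RefSeq accession (GRCm38.p6). The probe with the highest mean stood for its gene. Genes that reached a log2 intensity of 6.5 on at least 1 array were fitted with lmFit and eBayes of limma 3.58.1 (R 4.3.3) on 22 arrays of 8 groups, with up to 14 residual degrees of freedom and Benjamini-Hochberg adjustment of P over the 15202 genes tested. The fit was tested on simulated data.

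Groups and replicate numbers came from the labels, whose titles call the 22 arrays biological replicates. The source label of induced myeloid progenitor array 3 calls it technical. P values rest on the spread between arrays within a group, pooled over all groups of the fit. They do not cover variation between ES cell lines. The number of arrays limits the precision. By the correlation of deviations across genes, replicate numbers paired uninduced HE with HE2 (0.394, 0.795 and 0.608). No other comparison with 3 pairs was paired. Comparisons with sorted progenitors had 2 pairs and could not meet the rule, which required 3. The receptors and gene lists were chosen with earlier results of these data known. All receptors were named, with a part of the called genes of the lists and, for each receptor called, the 3 genes of closest pattern. Alternatives covered background, scaling, filter, probe choice, threshold, blocks and arrays left out.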

Additional observations from a re-analysis of the deposited data

Results flagged for a closer look

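The response of Il6ra to Dox differed between stages by a test of the difference itself. The log2 change in myeloid progenitors minus that in HE was -2.53 ± 0.38 (adjusted P = 0.000425 in limma), with Il6ra higher on 3 of 3 induced HE arrays and lower on 3 of 3 induced myeloid progenitor arrays than on any uninduced array of the same stage. The log2 change in HE2 minus that in HE was -1.61 ± 0.38 (adjusted P = 0.0531 in limma). This second difference was not called in 10 of 39 alternatives, and the fall in myeloid progenitors was not called in 7 of 39. Il6ra was read by 1 probe. Between HE and myeloid progenitors, stage, time of exposure to Dox, culture medium and slide cannot be told apart.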

How the results depend on the processing

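No log2 change of a receptor called here or in an alternative turned direction in any alternative run. Counts of receptors called moved by over 1.5 times as follows. They moved by less in others: with Dox in HE, 2 in place of 3 were called with an offset of 50, the deposited log2 values, the mean of all probes, the replicate block or scan date as a block. With only the compared groups fitted, 1 receptor was called with Dox in HE, 2 from HE2 to progenitors without Dox, 2 from HE to HE2 with Dox and 1 for the difference between progenitors and myeloid progenitors. With slide as a block, 1 was called with Dox in HE and 0 from progenitors to myeloid progenitors or from HE2 to progenitors with Dox, and with scan date as a block 1 was called in the last. With the mean of all probes, 1 was called with Dox in HE2, 2 for the difference between HE and myeloid progenitors and 1 for that between progenitors and myeloid progenitors, as also (1) with scaling to the 75th percentile, with no filter, or with the filter on spots well above background. At an adjusted P of 0.05, 2 were called from HE2 to progenitors and 2 from progenitors to myeloid progenitors without Dox, and 0 for the difference between HE and HE2. By a 2-fold change alone, 3 were called with Dox in progenitors, 4 from HE to HE2, 3 from HE2 to progenitors and 3 from progenitors to myeloid progenitors without Dox, and for the differences 2 (HE and HE2), 3 (HE2 and progenitors), 2 (HE and myeloid progenitors) and 1 (progenitors and myeloid progenitors). The additional array as replicate 3 gave 2 from HE2 to progenitors without Dox. Of 2 alternatives chosen after seeing the data, the additional array in place of the others gave 2 with Dox in progenitors and 0 from HE2 to progenitors without Dox, and slide as a block with the additional array gave 2 from progenitors to myeloid progenitors. The cause was not tested.

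The replicate block left 0 receptors called for the difference between HE and HE2, took the calls of Il1r1 in HE (1.66) and of Csf1r from HE2 to progenitors with Dox (1.51), and added Il1rl1 from HE to HE2 without Dox, beside the changes for Il6ra. Leaving out each array in turn gave 1 to 3 receptors called with Dox in HE, 2 to 3 in HE2, 1 to 2 in progenitors and 1 to 3 in myeloid progenitors. Without Dox it gave 2 to 3 from HE to HE2, 0 to 1 from HE2 to progenitors and 1 to 2 from progenitors to myeloid progenitors, and with Dox 1 to 4 and 1 to 3 for the first and second of these steps. For the differences in response it gave 0 to 1 (HE and HE2), 0 to 0 (HE2 and progenitors), 1 to 1 (HE and myeloid progenitors) and 0 to 1 (progenitors and myeloid progenitors). A lone progenitor array left was assumed to vary like the other groups. Scaling to the 75th percentile moved the median over all genes to -0.25 from progenitors to myeloid progenitors and to -0.19 with Dox in progenitors. It turned the split of genes called for HE2 against progenitors from 36 up and 62 down to 21 and 58. Over all genes, counts moved by over 1.5 times with only the compared groups fitted (1078 to 636 with Dox in HE, 1098 to 718 in HE2, 567 to 216 in progenitors, 770 to 465 and 471 to 286 from HE to HE2 without and with Dox, 1119 to 423 from HE2 to progenitors with Dox, 203 to 126 and 98 to 46 for the differences of HE2 with HE and with progenitors). A slide block gave 331 with Dox in progenitors, 574 of 2118 from progenitors to myeloid progenitors, 741 from HE2 to progenitors with Dox and 64 for HE2 against progenitors, and scan date 349 and 582 for the first and second of these. The additional array gave 1402 (slide block) and 1066 (in place) for the second. An adjusted P of 0.05 gave 133 and 22 for the differences of HE2 with HE and with progenitors, and 75th percentile scaling 138 of 228 for progenitors and myeloid progenitors. By a 2-fold change alone, the counts that moved lay between 810 and 3241. With 1 array left out it was 332 to 888 with Dox in progenitors, 55 to 310 for HE2 against progenitors and 144 to 486 for progenitors against myeloid progenitors. Normalizing early stages and myeloid progenitors apart gave no values between them.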
